A study of Mus musculus with 6 samples.

Results

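Prostaglandin E2 and the leukotrienes are made from arachidonic acid by a short chain of enzymes, and the 10 genes described here encode the principal steps of that chain. They were taken from the count table by symbol: Pla2g4a, Ptgs1, Ptgs2, Ptges, Ptges2, Ptges3, Alox5, Alox5ap, Lta4h and Ltc4s, 10 of 46603 genes. All 10 passed the filter on low counts that left 15440 genes for testing. RNA-Seq was performed on CD11B+ cells, taken with magnetic beads from digested kidneys of male mice aged 10 to 12 weeks, on day 3 after IRI-AKI (ischemia-reperfusion acute kidney injury), caused here by closing the vessels of both kidneys with clamps for 28 minutes. The 3 PTEC DN RAR mice were PEPCK CRE+ and the 3 Cre– controls were PEPCK CRE-, and both groups carried the Rosa26-LSL-RARaT403X allele and underwent the same surgery. The comparison asks how CD11B+ cells in the injured kidney differ when retinoic acid signaling is blocked in the tubule.

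Several features limit the groups as a model. PEPCK-Cre is active in PTECs (proximal tubular epithelial cells), so the dominant negative retinoic acid receptor was switched on in the epithelium and not, by design, in the CD11B+ cells that were sequenced. Per the study's methods the receptor allele was homozygous, and the Cre line was of mixed 129svJ;C57BL/6 origin. The controls lack Cre itself as well as the activated receptor, and all 6 libraries are from injured kidneys. Each library came from 1 mouse.

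In textbook outline, cytosolic phospholipase A2 frees arachidonic acid from membranes, and the cyclooxygenases COX-1 and COX-2 turn it into prostaglandin H2, from which terminal synthases make prostaglandin E2 and the other prostanoids. On the other branch, 5-lipoxygenase works with its activating protein FLAP to make leukotriene A4, which is hydrolysed to leukotriene B4, a chemoattractant of neutrophils, or joined to glutathione as leukotriene C4, the parent of the cysteinyl leukotrienes. Macrophages, monocytes and granulocytes are main sources of both classes of lipid, and in the kidney prostaglandin E2 also acts on blood flow and on salt and water handling.

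Cre– control libraries held 29318041 to 40741507 gene counts and PTEC DN RAR libraries 42113139 to 46517005. All levels are given as CPM, the counts of a gene relative to the library total after TMM, a scaling that sets most genes level between libraries, and log2 fold changes are PTEC DN RAR minus Cre– control. Mitochondrial transcripts took 5.03% to 8.77% of counts in controls and 10.4% to 12.1% in PTEC DN RAR mice. Itgam, which encodes CD11B, was at 1737 to 1995 CPM in controls and 980 to 1366 CPM in PTEC DN RAR mice, so the marker of the selection was present in every library and lower in the PTEC DN RAR group (log2 fold change -0.64, SE 0.14, adjusted p = 0.00818 from the quasi-likelihood test of edgeR). In these bulk samples, fewer cells of a type and less RNA per cell cannot be told apart.

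Of the 10 genes, 5 fell in PTEC DN RAR mice, 1 rose and 4 did not pass the test. Ptgs2, which encodes COX-2, fell the most, to less than its lowest control value in every PTEC DN RAR library, and smaller falls were seen for Pla2g4a, Ptges3, Alox5 and Alox5ap. The single gene that rose was Ptges2, which encodes a membrane-associated prostaglandin E synthase. Over all genes tested, 17.1% were called lower and 23.6% called higher, against 5 and 1 of these 10. The median log2 fold change of the 10 genes was -0.41, beside 0.04 over all genes tested. The groups did not overlap for 5 genes in the downward and 1 in the upward direction, beside 24.2% and 29.2% of all genes. How many fell depended on the scaling. When libraries were instead scaled on 26 genes common to leukocytes, the median of all genes moved from 0.04 to 0.27, 4.31% of all genes were called lower and 32.7% higher (665 and 5052 genes, against 2636 and 3640 with TMM), and among the 10 genes only Ptgs2 remained lower and Ptges2 higher. With TMM, 3 of the 10 genes fell, in place of 5, when Cre– control 2, Cre– control 3 or PTEC DN RAR 2 was left out.

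**Figure D1:**
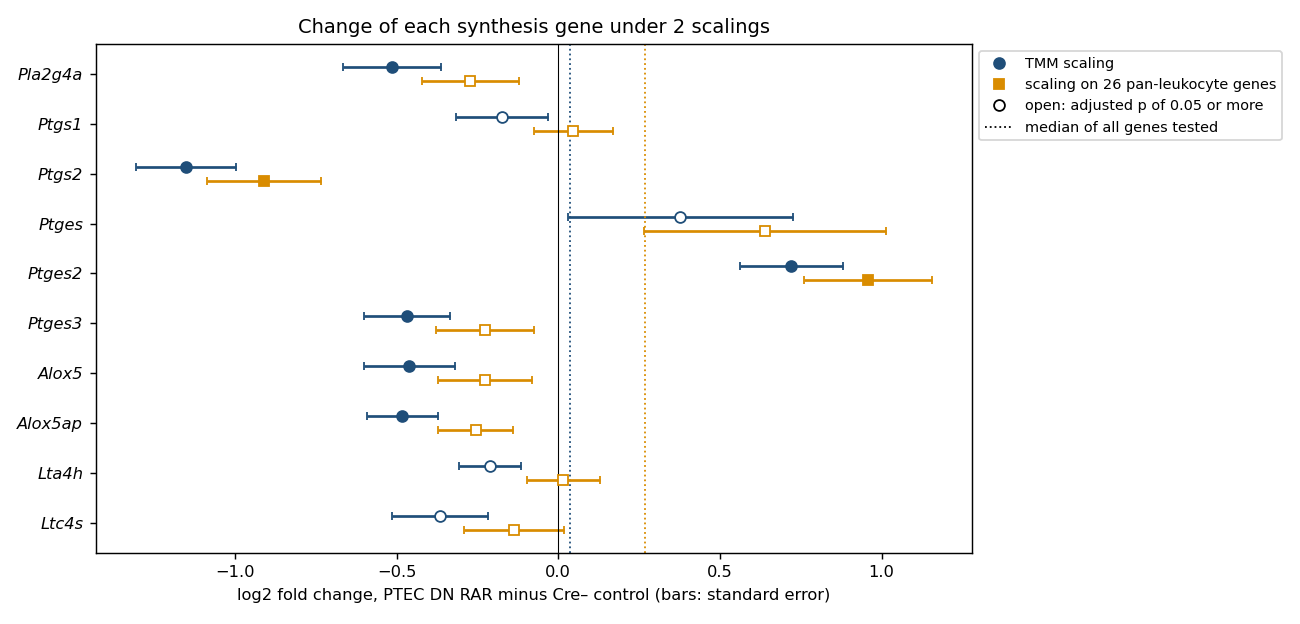
Log2 fold change (PTEC DN RAR minus Cre– control, horizontal axis) of each of the 10 genes with TMM (circles) and with scaling on 26 leukocyte genes (squares), with bars of 1 SE, filled symbols for calls and dotted lines at the medians of all genes tested, 0.04 and 0.27. With TMM, Ptgs2 lies farthest to the left at -1.15 and Ptges2 farthest to the right at 0.72, and with leukocyte scaling these are the 2 genes whose symbols stay filled, at -0.91 and 0.96.

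Pla2g4a, on GRCm38 at chr1:149829618-149961290 (minus strand, ENSMUSG00000056220), encodes the cytosolic phospholipase that supplies arachidonic acid to both branches. Its level was 61.7, 97.2 and 69.9 CPM in Cre– controls 1 to 3 and 53.4, 52.8 and 54.0 CPM in PTEC DN RAR mice 1 to 3. The PTEC DN RAR libraries were nearly level with each other and all below the controls, among which control 2 stood high. The means were 76.3 ± 18.5 and 53.4 ± 0.606 CPM (SD, n = 3 per group), a log2 fold change of -0.51 (SE 0.15, adjusted p = 0.0266 by edgeR). Without PTEC DN RAR 1 or PTEC DN RAR 2 the adjusted p from edgeR was 0.068 and 0.0668, and without Cre– control 2 the log2 fold change was -0.34. With leukocyte scaling the log2 fold change was -0.27 and the call was lost (adjusted p = 0.182 by edgeR, the highest of its alternatives, which reached down to 0.00472).

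Of the cyclooxygenase genes, Ptgs2 fell and Ptgs1 did not pass the test. Ptgs2 (chr1:150100031-150108227, plus strand, ENSMUSG00000032487) encodes the inducible COX-2, and Ptgs1 (chr2:36230426-36252272, plus strand, ENSMUSG00000047250) encodes COX-1, which many cells express constantly. The 250 bases before the annotated start of each gene are shown because these are the gene of the set with the largest difference and its closest relative, together with Ptges2, the one gene that rose. The sequences are those of RefSeq on GRCm38.p6, read 5′ to 3′ on the strand of the gene, at chr1:150099781-150100030 (plus strand) for Ptgs2, chr2:36230176-36230425 (plus strand) for Ptgs1 and chr2:32395640-32395889 (plus strand) for Ptges2. Capitals mark matches to the motifs searched.
Ptgs2: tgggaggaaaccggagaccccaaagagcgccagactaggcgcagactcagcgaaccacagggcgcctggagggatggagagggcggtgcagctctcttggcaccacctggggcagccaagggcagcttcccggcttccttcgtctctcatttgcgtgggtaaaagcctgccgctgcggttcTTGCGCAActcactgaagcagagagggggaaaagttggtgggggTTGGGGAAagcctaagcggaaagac
Ptgs1: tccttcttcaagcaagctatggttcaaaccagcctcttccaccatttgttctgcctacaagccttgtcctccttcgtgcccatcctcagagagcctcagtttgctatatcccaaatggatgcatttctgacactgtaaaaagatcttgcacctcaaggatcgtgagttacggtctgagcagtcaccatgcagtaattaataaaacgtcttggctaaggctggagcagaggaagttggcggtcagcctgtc
Ptges2: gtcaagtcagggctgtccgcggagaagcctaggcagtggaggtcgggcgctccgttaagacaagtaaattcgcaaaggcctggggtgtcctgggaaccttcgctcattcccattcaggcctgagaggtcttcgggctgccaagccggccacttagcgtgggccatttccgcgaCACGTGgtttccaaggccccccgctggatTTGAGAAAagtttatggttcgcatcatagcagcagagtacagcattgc

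The motifs searched, on both strands, were TGACG, the core of a cyclic AMP response element, CACGTG, an E-box, TTNNGNAA, a form of the C/EBP motif, a spaced form of the NF-kappaB motif, and TATAAA, the TATA box. In the Ptgs2 window TTNNGNAA matched at 69 to 62 and at 25 to 18 bases before the start, a motif held by 36.8% of 32851 mouse promoters of this length. The Ptges2 window held 1 CACGTG, at 77 to 72 bases before the start and present in 6.02% of promoters, and 1 TTNNGNAA, at 48 to 41 bases before the start. No motif of the 5 matched in the Ptgs1 window, which says only that these letters are not in it. TGACG, the NF-kappaB form and TATAAA are found in 17.8%, 4.65% and 12.4% of all promoters and in none of these 3 windows. This too concerns the windows alone, since bases past the annotated start or farther before it were not searched. The share of G and C was 61.6% in the Ptgs2 window, 48.0% in that of Ptgs1 and 57.6% in that of Ptges2.

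Ptgs2 was at 324, 365 and 465 CPM in Cre– controls 1 to 3 and at 177, 146 and 196 CPM in PTEC DN RAR mice 1 to 3. Every PTEC DN RAR library was well below the lowest control. The means were 384.7 ± 72.2 and 173.2 ± 25.4 CPM (SD, n = 3 per group), a fall of 55.0% (log2 fold change -1.15, SE 0.16, adjusted p = 0.001 by edgeR). It fell with leukocyte scaling too, with a log2 fold change of -0.91. Ptgs1 was at 129, 142 and 157 CPM in controls and at 139, 140 and 99.6 CPM in PTEC DN RAR mice. PTEC DN RAR 3 was the lowest of the 6 libraries while the other two PTEC DN RAR libraries lay among the controls. The means were 142.5 ± 14.2 and 126.3 ± 23.1 CPM (SD, n = 3 per group), and the log2 fold change of -0.17 (SE 0.14) did not pass the test (adjusted p = 0.351 by edgeR) and was 0.05 with leukocyte scaling. Gm43621, on the opposite strand, covers 3.8% of its exon bases.

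The ratio of Ptgs2 to Ptgs1 within a library does not depend on how libraries are scaled. On the log2 scale it was 1.34, 1.36 and 1.57 in the 3 controls, whereas the PTEC DN RAR libraries were at 0.35, 0.06 and 0.98. All PTEC DN RAR values were below the controls, by 0.96 in the means (1.42 ± 0.13 against 0.46 ± 0.47, SD, n = 3 per group). The two-sided exact permutation test gave p = 0.1, the smallest that 3 mice against 3 allow, and 0.2 after Benjamini-Hochberg adjustment over the 4 ratios computed. Counted per kilobase of exon, Ptgs2 made up 68.2% to 71.5% of both cyclooxygenase transcripts in controls and 46.9% to 62.6% in PTEC DN RAR mice.

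**Figure D2:**
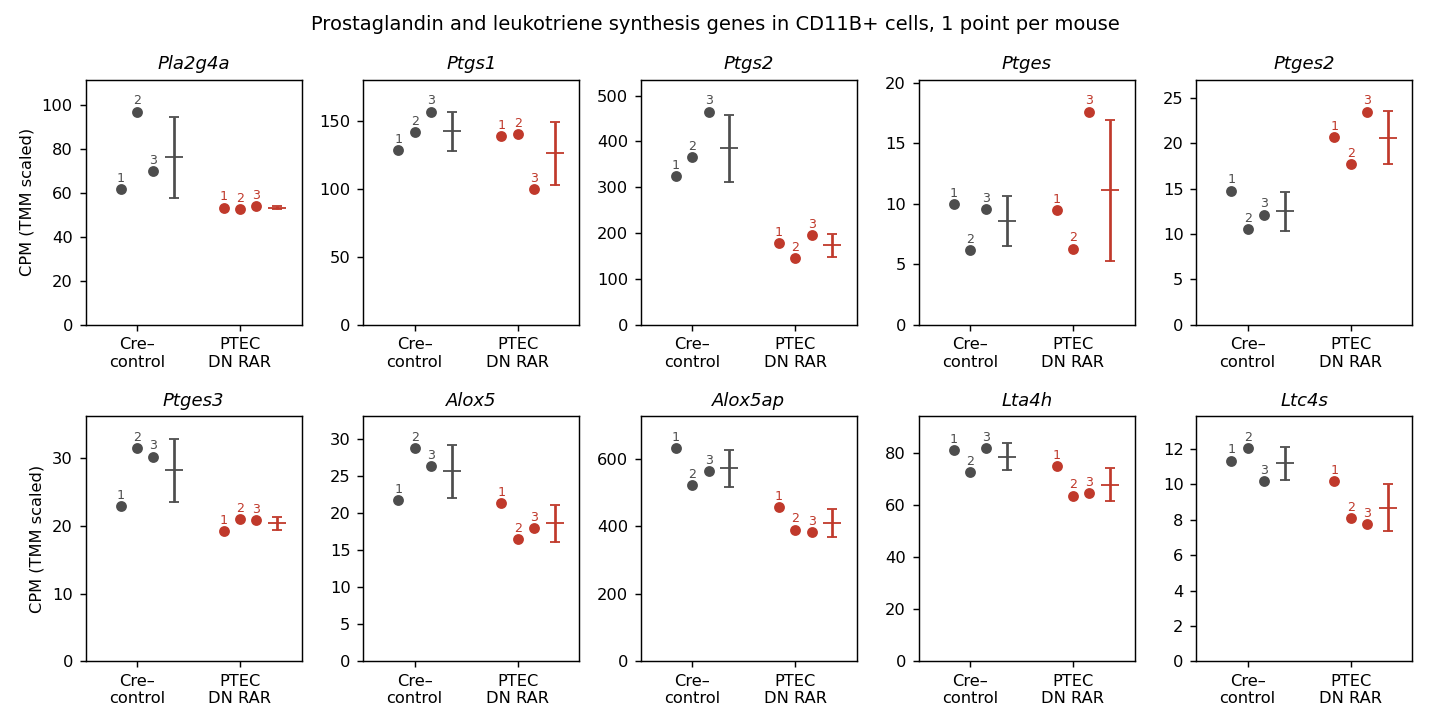
Level of each of the 10 genes in CPM (vertical axes, each with its own scale) in the 3 Cre– control and 3 PTEC DN RAR libraries, with the replicate number beside each point and the mean and SD of each group to the right of its points. The groups do not overlap for Pla2g4a, Ptgs2, Ptges2, Ptges3, Alox5 and Alox5ap. For Alox5 the lowest control (21.8 CPM) nearly meets the highest PTEC DN RAR library (21.4 CPM).

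The prostaglandin E synthases did not move together: 1 rose, 1 fell and 1 did not pass the test. Ptges2 (chr2:32395896-32405772, plus strand, ENSMUSG00000026820) was at 14.8, 10.6 and 12.1 CPM in Cre– controls 1 to 3 and at 20.7, 17.7 and 23.5 CPM in PTEC DN RAR mice 1 to 3. The groups did not overlap. The means were 12.5 ± 2.13 and 20.6 ± 2.89 CPM (SD, n = 3 per group), a log2 fold change of 0.72 (SE 0.16, adjusted p = 0.00809 by edgeR), and its call held in every alternative run. Ptges3 (chr10:128058954-128077272, plus strand, ENSMUSG00000071072) encodes a cytosolic synthase that is also the HSP90 cochaperone p23. It was at 22.9, 31.4 and 30.2 CPM in controls and at 19.2, 20.95 and 20.87 CPM in PTEC DN RAR mice, with control 1 nearest to the PTEC DN RAR libraries. Ptges3 fell from 28.2 ± 4.63 to 20.3 ± 0.984 CPM (SD, n = 3 per group, log2 fold change -0.47, SE 0.13, adjusted p = 0.0225 by edgeR). Of its 50-base exon windows, 19.6% occur also in Gm11893 or in the pseudogene Ptges3-ps, so its counts are uncertain. Its call was lost with leukocyte scaling (log2 fold change -0.23, adjusted p = 0.268 by edgeR, the highest of its alternatives, the lowest being 0.00307) and without Cre– control 2, Cre– control 3 or PTEC DN RAR 1, where the adjusted p from edgeR was 0.055, 0.0642 and 0.0727.

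Ptges (chr2:30889471-30929863, minus strand, ENSMUSG00000050737) encodes the inducible microsomal synthase that is commonly coupled to COX-2. It was at 9.94, 6.17 and 9.54 CPM in Cre– controls and at 9.46, 6.29 and 17.6 CPM in PTEC DN RAR mice. PTEC DN RAR 3 stood above all other libraries, and the rest of the PTEC DN RAR group lay within the controls. The means were 8.55 ± 2.07 and 11.1 ± 5.83 CPM (SD, n = 3 per group), with a log2 fold change of 0.38 (SE 0.35) that did not pass the test (adjusted p = 0.415 by edgeR). With leukocyte scaling the log2 fold change was 0.64, without Cre– control 2 it was 0.15, and without PTEC DN RAR 3 it was -0.16 (adjusted p = 0.65 by edgeR, in a range of 0.12 to 0.78 over the libraries left out). Ptges is known to be expressed in the collecting duct, of whose 5 markers 1 was called higher. Their sum was 170, 63.4 and 103 CPM in controls and 197, 135 and 271 CPM in PTEC DN RAR mice. Like Ptges, it was highest in PTEC DN RAR 3 and lowest in Cre– control 2. So was the sum of 5 thick ascending limb markers (1562, 1169 and 1334 CPM in controls, 7110, 4438 and 8464 CPM in PTEC DN RAR mice). The part of either segment in the Ptges level was not tested. On the log2 scale the ratio of Ptges to Ptgs2 was -5.03, -5.89 and -5.61 in controls, whereas PTEC DN RAR libraries were at -4.23, -4.54 and -3.48, apart by 1.43 in the means without overlap (exact permutation p = 0.1, the smallest possible, adjusted 0.2).

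Both genes of the first step of leukotriene synthesis fell, by like amounts. Alox5ap (chr5:149264767-149288153, plus strand, ENSMUSG00000060063) encodes FLAP and was the most abundant of the 10 genes. Its level was 631, 522 and 564 CPM in Cre– controls 1 to 3 and 457, 390 and 383 CPM in PTEC DN RAR mice 1 to 3, without overlap. It fell from 572.6 ± 54.9 to 410.0 ± 40.5 CPM (SD, n = 3 per group, log2 fold change -0.48, SE 0.11, adjusted p = 0.00946 by edgeR). With leukocyte scaling its log2 fold change was -0.26 (adjusted p = 0.112 by edgeR, the highest of its alternatives, the lowest being 5.26e-05). The antisense gene Gm19719 covers 13.3% of its exon bases, and the strand setting of the counting was not given in the sources used here.

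Alox5 (chr6:116410077-116461178, minus strand, ENSMUSG00000025701) encodes 5-lipoxygenase itself. Its level was 21.8, 28.8 and 26.4 CPM in Cre– controls and 21.4, 16.5 and 18.0 CPM in PTEC DN RAR mice. The groups were separated only by the narrow gap between Cre– control 1 and PTEC DN RAR 1. Alox5 fell from 25.7 ± 3.54 to 18.7 ± 2.505 CPM (SD, n = 3 per group, log2 fold change -0.46, SE 0.14, adjusted p = 0.0301 by edgeR). Its call was lost without Cre– control 2, Cre– control 3, PTEC DN RAR 2 or PTEC DN RAR 3 (adjusted p from edgeR between 0.0591 and 0.0925), and with leukocyte scaling, where its log2 fold change was -0.23 and the adjusted p from edgeR was 0.246, the highest of its alternatives, the lowest being 0.00554. The log2 ratio of Alox5 to Alox5ap was -4.48 ± 0.34 in controls and -4.46 ± 0.09 in PTEC DN RAR mice (SD, n = 3 per group), a difference of 0.02 (exact permutation p = 0.8, adjusted 0.8) that lay between -0.16 and 0.17 as each library was left out.

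Neither gene of the step after leukotriene A4 passed the test. Lta4h (chr10:93453411-93484875, plus strand, ENSMUSG00000015889) encodes the hydrolase that makes leukotriene B4. It was at 81.3, 72.7 and 81.9 CPM in Cre– controls and at 75.2, 63.7 and 64.8 CPM in PTEC DN RAR mice, with PTEC DN RAR 1 above Cre– control 2. The means were 78.7 ± 5.13 and 67.9 ± 6.34 CPM (SD, n = 3 per group, log2 fold change -0.21, SE 0.10, adjusted p = 0.108 by edgeR), and the log2 fold change was 0.02 with leukocyte scaling. Ltc4s (chr11:50236461-50238616, minus strand, ENSMUSG00000020377) encodes leukotriene C4 synthase. It was at 11.4, 12.0 and 10.2 CPM in controls and at 10.2, 8.11 and 7.78 CPM in PTEC DN RAR mice, so that PTEC DN RAR 1 met Cre– control 3. The means were 11.2 ± 0.931 and 8.70 ± 1.32 CPM (SD, n = 3 per group, log2 fold change -0.37, SE 0.15, adjusted p = 0.0794 by edgeR), and the log2 fold change was -0.14 with leukocyte scaling. Ltc4s did pass the test with DESeq2 (log2 fold change -0.41, adjusted p = 0.0329) and, with edgeR, without PTEC DN RAR 1 (-0.50, adjusted p = 0.0432), in a range up to 0.514 over its alternatives. The antisense gene Gm26542 covers 26.4% of its exon bases, which leaves its counts uncertain. The log2 ratio of Ltc4s to Lta4h was -2.81 ± 0.21 in controls and -2.97 ± 0.09 in PTEC DN RAR mice (SD, n = 3 per group, exact permutation p = 0.3, adjusted 0.4).

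Divided by the length of their merged exons, the 10 genes covered a wide range of levels. In Cre– controls the order was Alox5ap (403 CPM per kilobase), Ptgs2 (84.0), Ptgs1 (36.7), Lta4h (12.9), Ptges3 (12.7), Pla2g4a (11.9), Ltc4s (11.04), Alox5 (6.25), Ptges2 (2.47) and Ptges (2.18). The libraries of neighbours in this order overlapped from Lta4h through Ltc4s and between Ptges2 and Ptges, and did not overlap at the other steps. In PTEC DN RAR mice Alox5ap was again first (289 CPM per kilobase), but Ptgs2 (37.8) now overlapped Ptgs1 (32.5), and Ptges2 (4.07) overlapped both Alox5 (4.54) and Ptges (2.83). FLAP transcripts thus outnumbered those of 5-lipoxygenase per kilobase in every library, with Alox5 making up 1.18% to 1.87% of both. By CPM, Alox5ap stood at percentile 98.6 of all genes tested, Ptgs2 at 96.9 and Ptgs1 at 91.5, and the lowest were Ltc4s at 41.7 and Ptges at 41.4.

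Marker transcripts of other cell types also differed between the groups for some lists, though not for all, and these values stand beside every result above. Summed over their lists, 8 markers of infiltrating monocytes were at 3812 to 4113 CPM in controls and 1611 to 1673 CPM in PTEC DN RAR mice, with 7 of 8 called lower, and 10 neutrophil markers were at 471 to 849 and 299 to 426 CPM, with 5 of 10 called lower. In controls the neutrophil sum was mostly S100a8 (88.3 to 189 CPM) and S100a9 (158 to 359.5 CPM). In PTEC DN RAR mice these were at 42.4 to 77.5 and 84.2 to 126 CPM. Ly6g, Ngp, Camp, Ltf and Csf3r did not pass the test. The 26 leukocyte genes used for scaling were at 16530 to 17580 and 13250 to 15420 CPM, with 9 of the 25 tested called lower. The 8 resident macrophage markers overlapped, at 18100 to 23520 and 20170 to 25430 CPM, with 1 called lower and 1 higher. Of 8 platelet markers, whose cells are rich in COX-1, 5 were tested, with 2 called lower and 1 higher, and their sum was 281 to 415 CPM in controls and 39.9 to 52.1 CPM in PTEC DN RAR mice. That sum was nearly all Pf4 (258 to 383 and 32.3 to 43.95 CPM) and Ppbp (19.0 to 36.4 and 0.778 to 1.77 CPM), whereas Itga2b and Treml1 did not pass the test (log2 fold changes 0.02 and -0.10) and Itgb3 was called higher (0.72). Tubule markers went the other way, with all 8 of the proximal tubule (362 to 516 and 1341 to 2018 CPM) and all 5 of the thick ascending limb (1169 to 1562 and 4438 to 8464 CPM) called higher. All 8 endothelial markers (93.7 to 133 and 271 to 333 CPM), 6 of 7 stromal markers tested (74.9 to 85.0 and 119 to 172 CPM) and all 4 podocyte markers (50.5 to 79.9 and 144 to 176 CPM) were higher too. Mast cells and basophils, which make leukotriene C4, had 1 of 9 markers tested, Gata2, which was called higher and made up nearly all of the sum of the list (3.39 to 7.56 CPM in controls and 6.88 to 15.3 CPM in PTEC DN RAR mice). The other 8 had at most 7 counts in a library, and Prss34 had no count in any library, where 3 counts come to 0.0636 to 0.101 CPM. Of 6 eosinophil markers 3 were tested and did not pass (10.8 to 14.0 and 6.48 to 14.1 CPM), and of 7 markers of NK, T and B cells 5 were tested and did not pass (1.71 to 3.69 and 2.18 to 7.45 CPM). The part of any of these cell types in the levels of the 10 genes was not tested.

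**Figure D3:**
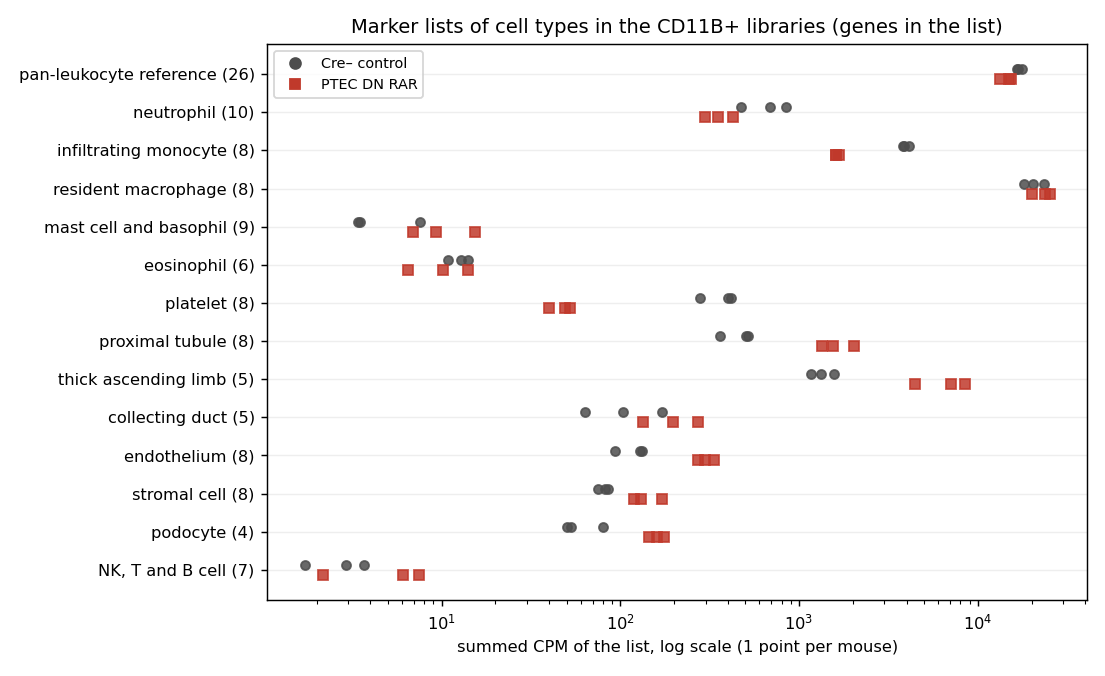
Summed CPM of each cell type marker list (log axis, number of genes in brackets), 1 point per mouse. Without overlap, the monocyte, neutrophil and platelet lists sit lower in PTEC DN RAR mice than in Cre– controls. Of the neutrophil markers 5 of 10 were called lower, and the platelet sum is lower through Pf4 and Ppbp. The proximal tubule, thick ascending limb, endothelial, stromal and podocyte lists sit higher, also without overlap.

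Around the 10 genes, 59 other genes of eicosanoid release, synthesis, transport, breakdown and reception were listed. Of these, 51 were tested, 8 were called lower and 26 higher (15.7% and 51.0%, beside 17.1% and 23.6% of all genes), and the median log2 fold change was 0.54. In the lists closest to leukocyte lipid mediators the calls went both ways. Among 7 other terminal prostanoid synthases, 1 fell and 1 rose. Tbxas1, the thromboxane synthase, fell from 236.8 ± 16.9 to 155.2 ± 11.6 CPM (SD, n = 3 per group, log2 fold change -0.61, SE 0.09, adjusted p = 0.00177 by edgeR; -0.38 and still called with leukocyte scaling), and Ptgds, a prostaglandin D synthase, rose from 1.32 ± 0.142 to 5.26 ± 2.00 CPM (log2 fold change 1.99, SE 0.30, adjusted p = 0.00161 by edgeR). Of 5 genes of prostaglandin uptake, export and breakdown 4 rose, among them the uptake transporter Slco2a1 (log2 fold change 1.6, SE 0.21) and the exporter Abcc4 (0.55, SE 0.09). The fifth, Ptgr1, a reductase that also inactivates leukotriene B4, fell (-1.70, SE 0.18), from 44.4 to 49.9 CPM in the controls to 10.9 to 18.6 CPM in PTEC DN RAR mice.

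Receptor genes also moved in both directions. Of 7 prostanoid receptors tested, 1 fell and 3 rose. Ptger2, which encodes the cyclic AMP-raising prostaglandin E2 receptor EP2, was at 7.74, 4.23 and 7.57 CPM in Cre– controls and at 2.68, 1.86 and 2.65 CPM in PTEC DN RAR mice (log2 fold change -1.44, SE 0.27, adjusted p = 0.00392 by edgeR). Ptger3, which encodes EP3, was at 8.43, 9.16 and 9.95 CPM in controls and at 57.7, 44.7 and 56.2 CPM in PTEC DN RAR mice (2.53, SE 0.13, adjusted p = 9.29e-05 by edgeR). Ptgfr, the prostaglandin F receptor, rose by 1.96 (SE 0.21), whereas Ptger4, which encodes EP4 and was the most abundant of these receptors by CPM, was at 77.6 to 88.3 CPM in controls and 77.4 to 91.0 CPM in PTEC DN RAR mice and did not pass the test. Of 4 leukotriene receptors tested 2 fell. Ltb4r1, the high-affinity leukotriene B4 receptor, went from 16.5 ± 1.36 to 9.53 ± 0.893 CPM (SD, n = 3 per group, log2 fold change -0.79, SE 0.13, adjusted p = 0.00213 by edgeR), and Cysltr1, a cysteinyl leukotriene receptor, from 125.6 ± 15.0 to 79.2 ± 7.61 CPM (-0.67, SE 0.11, adjusted p = 0.00251 by edgeR; -0.44 and still called with leukocyte scaling). The receptor that rose, Oxgr1, is a 2-oxoglutarate receptor also reported to bind leukotriene E4 (2.12, SE 0.31). Ptgfr was at 37.6, 32.9 and 52.1 CPM and Oxgr1 at 30.7, 21.5 and 49.3 CPM in PTEC DN RAR 1 to 3, both highest in PTEC DN RAR 3. Ptger3 was nearly level in PTEC DN RAR 1 and PTEC DN RAR 3 (57.7 and 56.2 CPM). Ptgfr, Oxgr1 and Ptger3 were all lowest in PTEC DN RAR 2. In PTEC DN RAR 1 to 3 the thick ascending limb markers summed to 7110, 4438 and 8464 CPM. The collecting duct markers summed to 197, 135 and 271 CPM, in the same order. The part of tubule cells in the receptor genes that rose was not tested.

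**Figure D4:**
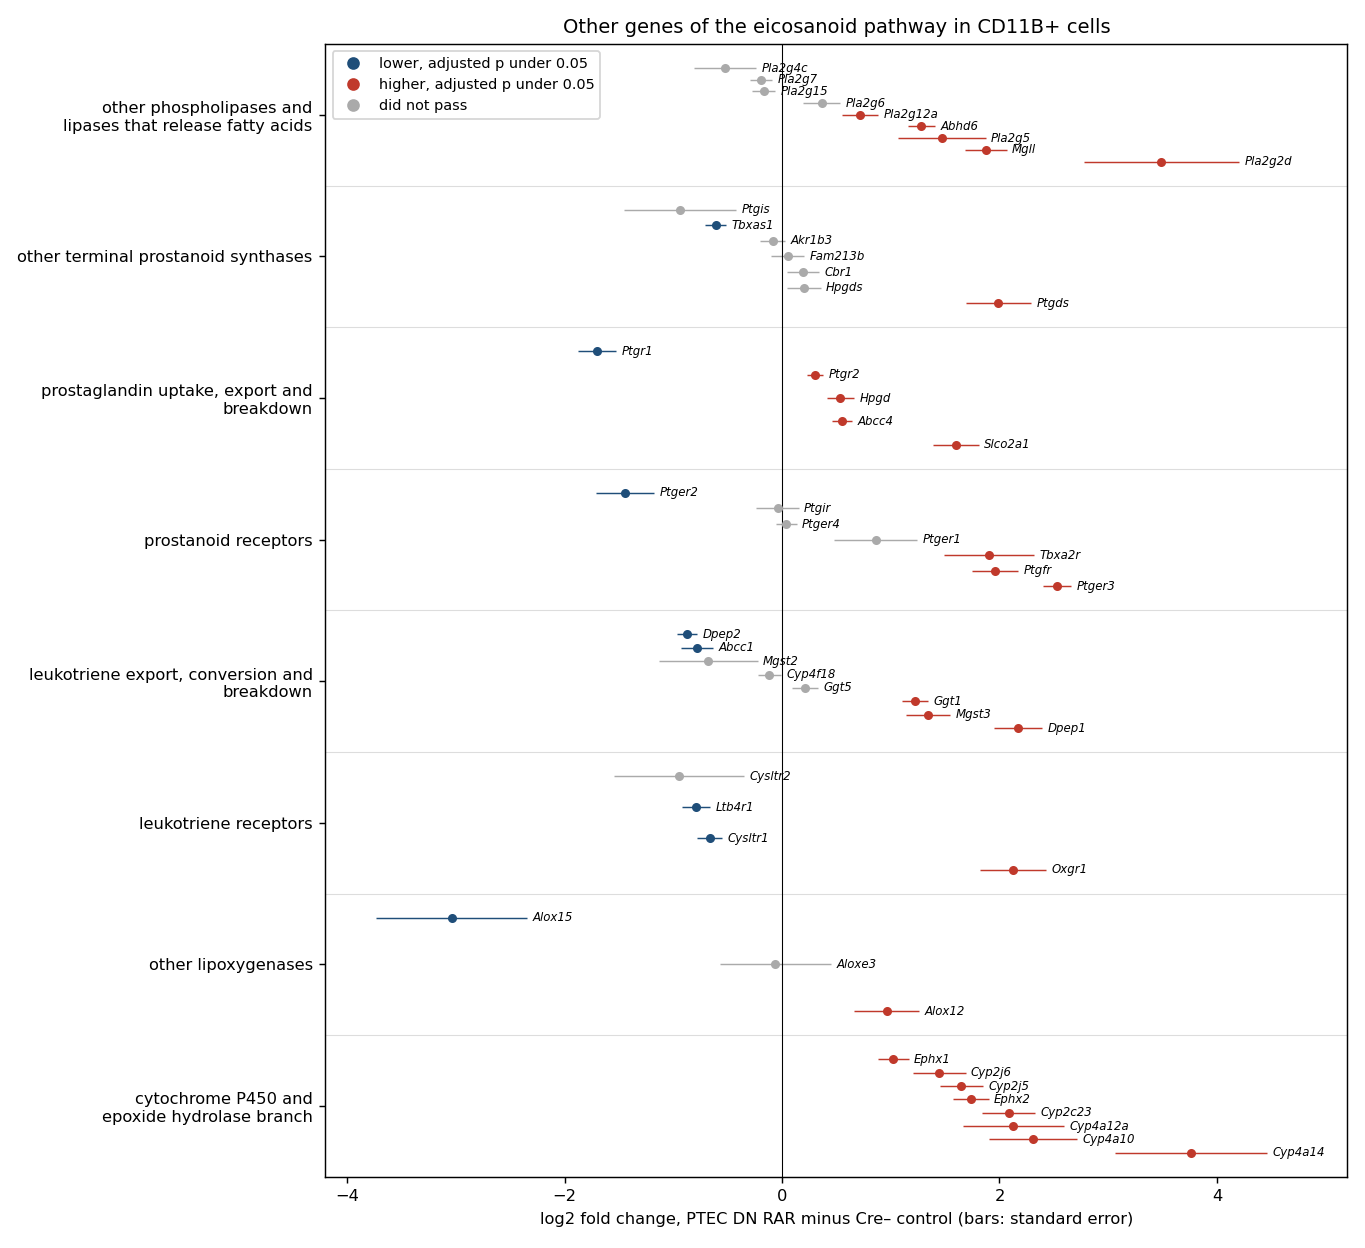
Log2 fold change (PTEC DN RAR minus Cre– control, horizontal axis) of each tested gene in the 8 lists of other eicosanoid genes, with bars of 1 SE and calls at an adjusted p under 0.05 coloured. All 8 genes of the cytochrome P450 and epoxide hydrolase list lie to the right of 0, and the leukotriene receptors have 2 of 4 genes called lower.

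In the conversion of leukotrienes, Abcc1, which exports leukotriene C4, and Dpep2, a dipeptidase that turns leukotriene D4 into leukotriene E4, fell by 0.78 (SE 0.15) and 0.87 (SE 0.09) on the log2 scale, and 3 of the 8 genes of this list rose, Dpep1 and Mgst3 the most (2.17, SE 0.22, and 1.34, SE 0.20). Dpep1 is a brush border enzyme of the proximal tubule. Among the other lipoxygenases, Alox15, which encodes the 12/15-lipoxygenase of macrophages and eosinophils, was at 13.6, 70.8 and 14.9 CPM in Cre– controls and at 5.50, 4.88 and 1.72 CPM in PTEC DN RAR mice. Cre– control 2 stood far above the other controls, and all PTEC DN RAR libraries were below every control (log2 fold change -3.04, SE 0.70, adjusted p = 0.00938 by edgeR). Without Cre– control 2 the log2 fold change was -1.86. Alox12, the platelet-type enzyme, was higher (0.96, SE 0.30, adjusted p = 0.0317 by edgeR), a call lost without any 1 of 5 libraries, every one but Cre– control 1, with adjusted p values from edgeR between 0.0651 and 0.125.

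All 8 genes of the cytochrome P450 and epoxide hydrolase branch, which makes and removes hydroxy and epoxy derivatives of arachidonic acid, were higher (median log2 fold change 1.91). Cyp4a14 rose from 0.538 to 3.96 CPM in the controls to 12.1 to 44.7 CPM in PTEC DN RAR mice (3.76, SE 0.70) and Cyp4a10 from 2.21 to 6.84 to 13.4 to 26.02 CPM (2.31, SE 0.40). Without Cre– control 3 their log2 fold changes were 4.86 and 2.89, and without PTEC DN RAR 2 that of Cyp4a14 was 3.07. Of 9 other phospholipases and lipases tested, 5 rose and 4 did not pass the test. Pla2g2d, a secreted phospholipase of dendritic cells and macrophages, was at 0.307, 0.201 and 0.127 CPM in controls and at 2.46, 4.31 and 0.636 CPM in PTEC DN RAR mice (3.49, SE 0.71, adjusted p = 0.00571 by edgeR, and 2.81 without PTEC DN RAR 2). Mgll, the lipase that frees arachidonic acid from 2-arachidonoylglycerol, rose from 6.71 ± 1.19 to 24.7 ± 4.98 CPM (SD, n = 3 per group, 1.88, SE 0.19, adjusted p = 0.000321 by edgeR). The proximal tubule and thick ascending limb markers given above were higher in the same libraries, and their part in these rises was not tested.

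The genes whose levels ran most like those of 3 of the members were sought among 8991 genes of at least 10 CPM, by the root mean square distance between log2 CPM values centred over the 6 libraries. Among the nearest to Ptgs2 were Nrp2 (0.0893) and Tiparp (0.0923). Tiparp was at 87.9, 100 and 123 CPM in Cre– controls and at 46.8, 44.6 and 48.4 CPM in PTEC DN RAR mice. Nearest to Pla2g4a were Recql (0.0769), Dnmt1 (0.0809) and Hnrnpd (0.0811), each highest in Cre– control 2 as Pla2g4a was. Nearest to Alox5 were Cit (0.0379), Sae1 (0.0409) and Ncapd2 (0.0497). Of these 3, Ncapd2 encodes a subunit of the condensin complex and Cit a kinase of cytokinesis. The distance keeps the group difference, and the log2 fold changes of Cit, Sae1 and Ncapd2 were -0.49, -0.42 and -0.50, beside -0.46 for Alox5. Whether anything else joins these genes to Alox5 was not tested.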

How the data were processed

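The authors sequenced polyadenylated RNA of CD11B+ cells from 6 mice, 1 library per mouse. The values deposited are raw read counts per Ensembl gene. The submitters' processing notes name STAR 2.5.0a, HTSeq 0.6.1, edgeR, limma and GRCm38, without their settings. Reads aligned to more than 1 place (42.9% to 47.8% of alignments) and other summary rows are outside the gene counts, so genes with near-identical copies can be undercounted. The 46612 gene rows held 9 repeated identifiers and 0 columns of other samples.

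Counts of 46603 genes were filtered with filterByExpr and scaled by TMM. PTEC DN RAR was tested against Cre– control by edgeR 4.0.16 (glmQLFit, glmQLFTest, R 4.3.3), two-sided, with Benjamini-Hochberg adjustment over 15440 genes and a threshold of 0.05. SE is the size of the log2 fold change divided by the square root of F, and log2 CPM used a prior count of 2. The procedure was tested on simulated data. Ratios were compared by exact permutation tests. Coordinates come from GENCODE M21 on GRCm38, and promoters from RefSeq on GRCm38.p6, where 9 of the 10 genes have an entry. Counts of libraries of a genotype differed by a chi-square of at least 29.6 per degree of freedom, so each was used as a separate sample. The members and gene lists were chosen with earlier results of these data known. Named are all members, in each other pathway list up to 2 genes called lower and 2 called higher with the largest log2 fold change and at least 1 CPM, and the 3 genes nearest to Pla2g4a, Ptgs2 and Alox5, of which 1 is not reported here. Ptger4, Gata2 and the neutrophil and platelet markers were named after their values were seen. Cyp2c23 and Arhgap45 stand in the table under other names. Alternatives were DESeq2 1.42.0, limma-voom 3.58.1, DESeq2 size factors, library size, 26 leukocyte genes as scaling reference, no filter, at least 10 counts in every library, a replicate block, and each library left out.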

Additional observations from a re-analysis of the deposited data

How the results depend on the processing

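With leukocyte scaling, genes called lower fell from 2636 to 665 over all genes and from 5 to 1 among the 10 synthesis genes, and the log2 fold changes of Ptgs1 and Lta4h, neither called, became 0.05 and 0.02. The other 7 alternatives beside leaving out libraries kept each count of calls within 1.5 times. As each library was left out, 3 to 5 of the 10 genes were called lower and 1 higher, 8 to 10 and 22 to 26 of the other pathway genes were called lower and higher, and 1874 to 2824 and 2433 to 3699 of all genes. Ptgs2 stayed between -1.29 and -1.04 and Ptges2 between 0.57 and 0.86. Ptges lay between -0.16, without PTEC DN RAR 3, and 0.66. The difference in the log2 ratio of Ptgs2 to Ptgs1 lay between -1.22 and -0.76, of Alox5 to Alox5ap between -0.16 and 0.17, of Ltc4s to Lta4h between -0.25 and -0.05 and of Ptges to Ptgs2 between 1.12 and 1.66. DESeq2 called 6 of the 10 genes lower, adding Ltc4s. Pla2g2d has no value at 10 counts or more in every library.

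The replicate numbers come from the labels and name different mice. Deviations of libraries with the same number correlated at -0.01, 0.21 and 0.03, so the numbers were not taken as pairs. With the replicate block, 30 of 31 named genes kept their call, the exception being Alox5 (-0.46, adjusted p = 0.0622 by edgeR).

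With 3 mice a group, the exact test of a ratio cannot go below 0.1. Depth does not limit the 10 genes, whose lowest level was 6.17 CPM in a range where 3 counts come to at most 0.101 CPM. Such limits cover counting error only, since reads that carry no molecular identifiers can be copies of each other.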
